A study of Mus musculus with 8 samples.

Results

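Cells of the AML410 leukaemia taken after 6 days on doxycycline (Dox) were compared with cells taken after 2 days on Dox, so that both sides of the comparison had received the drug and no untreated sample entered the contrast. All 8 samples entered the fit that estimated the spread. The comparison uses 4 of the 8 samples, chosen by their titles: 2 from day 6 and 2 from day 2. AML410 is an acute myeloid leukaemia of the mouse, of monosomal karyotype, carried in C57BL/6 mice, whose cells lack p53 and hold a short hairpin RNA against PU.1 that is linked to green fluorescent protein (GFP). Dox shuts the hairpin off, so GFP fades while PU.1 returns. RNA was sequenced from GFP-positive cells sorted from the bone marrow of leukaemic recipients, and every sample, untreated ones too, carries the same leukaemia, the p53 loss and the hairpin. The day 2 cells came from a GFPhigh-mid gate and the day 6 cells from a GFPlow gate, the day 4 cells from a GFPmid gate and the untreated cells from a GFPhigh gate. Gate and time on Dox therefore moved together and cannot be told apart. All samples derive from 1 leukaemia. The titles call the replicates technical, while the design text speaks of duplicate mice, so the spread behind the p-values is that between these samples and may be technical.

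PU.1, the protein of Spi1, is an ETS-family transcription factor that binds purine-rich sites around a GGAA core and drives the genes of macrophages, neutrophils and B cells. Low PU.1 holds myeloid precursors in an immature state, and its return lets them mature. Maturing neutrophils make their granules in order: primary granules with proteases and myeloperoxidase are filled early, secondary granules with lactoferrin later, and gelatinase-rich tertiary granules last. Monocytes and macrophages instead gain scavenger, complement and lysosomal genes.

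Total counts ran from 9262047 to 11213292 per sample. Day 2 replicate 1 stood apart from the other 7 samples before any comparison was made. A gene ID that the annotation gives no symbol made up 13.3% of its counts (13.28 to 13.33%, exact 95% binomial interval, counting error only), against 0.0883 to 0.149% elsewhere, and Lars2 took 1.48% against 0.0905 to 0.214%. Among 9498 genes of at least 3 log2 CPM (counts scaled to library size) on average, 50 differed by over 2-fold between the day 2 replicates, against 33, 12 and 9 between the untreated, day 4 and day 6 replicates. The median absolute log2 difference between replicates was 0.138 in untreated samples, 0.0993 at day 2, 0.102 at day 4 and 0.0780 at day 6, so that by this median the untreated pair differed most. Fold changes and calls against day 2 were therefore also computed with day 2 replicate 1 and day 2 replicate 2 as the only day 2 sample. The lone sample was then assumed to vary like the other groups. Ratios of counts, floors, the place of the day 4 mean and chromosome medians used both day 2 samples only. Levels are given as CPM scaled by the trimmed mean of M values (TMM), replicate 1 first. All 6 genes fixed as marks of myeloid cells (Ptprc, Mpo, Elane, Itgam, Csf1r and Lyz2) had counts in all 8 samples.

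Of 12330 genes tested, 7383 (59.9%) differed between day 6 and day 2 at an adjusted p under 0.05 (edgeR quasi-likelihood test, Benjamini-Hochberg). Higher at day 6 were 3758 genes (30.5%) and lower were 3625 (29.4%). Scaled by total counts in place of TMM, the median of all genes moved from −0.02 to −0.28 on the log2 scale, and the calls split into 2310 higher and 4998 lower. Of the TMM-scaled calls, 1499 genes were over 2-fold higher and 1279 over 2-fold lower, and 345 and 212 passed 8-fold. Tested against a minimum change of 1.5-fold, 1831 rose and 1343 fell. Against untreated samples, which share the day 6 samples with this comparison, 7839 genes (63.6%) were called, 3942 higher (32%) and 3897 lower (31.6%), or 2078 higher and 6647 lower under scaling by total counts. Counts within a list of genes are to be read against these shares of 30.5% higher and 29.4% lower. The mean at day 4 lay between the day 2 and day 6 means for 3172 of the 3758 higher genes (84.4%) and 3283 of the 3625 lower genes (90.6%).

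Spi1 itself (gene 20375, GRCm38, chr2:91082374-91115759) was higher at day 6 than at day 2. It stood at 14.8 and 15.6 CPM at day 2 and 217 and 229 CPM at day 6, with 94.05 and 103 CPM at day 4 and 8.34 and 12.9 CPM in untreated cells. The day 6 samples lay far above both day 2 samples (log2 change 3.87, SE 0.14, edgeR adjusted p = 2.74e-09), and the change was 3.92 with day 2 replicate 1 alone and 3.83 with day 2 replicate 2 alone. Against untreated the log2 fold change was 4.39. Trp53, the p53 gene (gene 22059, GRCm38, chr11:69580348-69591873), had 61.2 and 64.8 CPM at day 2 and 42.8 and 41.1 CPM at day 6. It fell (log2 change −0.59, SE 0.08, edgeR adjusted p = 0.000105), and its change against untreated was −0.61. Whole-gene counts do not check the p53 loss named in the study's title.

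Among the largest rises were genes of a protease and of chitinase-like proteins. Asprv1, an aspartic protease (gene 67855, GRCm38, chr6:86628174-86629710), had 0.346 and 0.359 CPM at day 2 and 62.6 and 94.3 CPM at day 6 (log2 change 7.75, SE 0.38, edgeR adjusted p = 2.09e-08). Chil3 (gene 12655, GRCm38, chr3:106147554-106167564) and Chil4 (gene 104183, GRCm38, chr3:106201491-106219479) encode chitinase-like proteins of activated phagocytes and are near-identical neighbours on chromosome 3, so reads may be divided between them wrongly. Chil3 was at 57.8 and 29.3 CPM at day 2 and at 7202 and 7975 CPM at day 6 (log2 change 7.45, SE 0.29, edgeR adjusted p = 4.22e-09). Chil4 was at 1.61 and 0.808 CPM and 202 and 227 CPM (log2 change 7.51, SE 0.18, edgeR adjusted p = 3.82e-10). In each of these genes both day 6 samples lay above both day 2 samples.

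The 250 bases before the annotated start are shown for the genes among the first 4 rises that RefSeq's promoter table (GRCm38.p6) lists, because these genes rose most. Itgam, the CD11b integrin chain and a textbook PU.1 target, is shown with them and was chosen after its values were seen. Capitals mark GAGGAA or its reverse complement TTCCTC, a core that PU.1 is known to bind. Each is written 5′ to 3′ on the gene's strand.
Itgam: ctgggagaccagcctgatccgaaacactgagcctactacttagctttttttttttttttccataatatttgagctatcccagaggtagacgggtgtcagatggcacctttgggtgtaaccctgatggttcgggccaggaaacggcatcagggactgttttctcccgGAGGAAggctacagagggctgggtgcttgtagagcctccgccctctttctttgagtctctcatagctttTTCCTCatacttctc
Asprv1: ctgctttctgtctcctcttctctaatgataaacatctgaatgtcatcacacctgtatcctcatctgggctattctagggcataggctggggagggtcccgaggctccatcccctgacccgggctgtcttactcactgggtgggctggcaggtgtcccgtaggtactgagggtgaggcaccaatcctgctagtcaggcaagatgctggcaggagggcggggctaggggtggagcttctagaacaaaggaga
Chil3: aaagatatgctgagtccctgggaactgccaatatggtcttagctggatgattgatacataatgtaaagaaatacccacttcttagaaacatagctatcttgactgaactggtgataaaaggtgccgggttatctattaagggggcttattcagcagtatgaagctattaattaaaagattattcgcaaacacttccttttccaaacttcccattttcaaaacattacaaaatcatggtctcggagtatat
Chil4: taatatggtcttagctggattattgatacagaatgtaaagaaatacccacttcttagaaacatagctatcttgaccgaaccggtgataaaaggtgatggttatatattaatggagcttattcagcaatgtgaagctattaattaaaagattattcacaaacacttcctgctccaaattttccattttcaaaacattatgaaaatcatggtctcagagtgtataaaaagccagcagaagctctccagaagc
The Asprv1 stretch (chr6:86627924-86628173, plus strand), the Chil4 stretch (chr3:106219480-106219729, minus strand) and the Chil3 stretch (chr3:106167565-106167814, minus strand) held 0 matches, and the Itgam stretch (chr7:128062390-128062639, plus strand) held 2. The same 6 letters occur on either strand in 23.3% of 32851 such stretches in the table and in those of 26.1% of 9555 tested genes. Among leading genes with an entry, 5 of 10 that rose and 2 of 8 that fell held a match. The Chil3 and Chil4 stretches were identical at 203 of 221 aligned positions (91.9%), a share that leaves out 58 gap positions of the alignment. A match describes letters only, and 0 matches concerns these 6 letters only. Other sites around a GGAA core were not looked for.

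The other leading rises came from receptors and enzymes of mature myeloid cells. Clec4a3 and Clec4b2 are C-type lectin receptors of a clustered family, in which reads may be shared between copies. Clec4a3 had 0.346 and 0.18 CPM at day 2 and 39.9 and 40.8 CPM at day 6 (log2 change 7.25, SE 0.28, edgeR adjusted p = 3.95e-09), and Clec4b2 had a log2 fold change of 7.13. Siglec1, the macrophage sialic acid receptor CD169, went from 0.692 and 0.18 CPM to 63.8 and 61.4 CPM (log2 change 7.23, SE 0.23, edgeR adjusted p = 1.53e-09). Hpgd, which inactivates prostaglandins, went from 0.461 and 0.449 CPM to 62.8 and 57.9 CPM (log2 change 7.02, SE 0.20, edgeR adjusted p = 6.84e-10), and its rise was 6.996 and 7.03 with day 2 replicates 1 and 2 taken singly. Upb1, an enzyme of pyrimidine breakdown, changed by 7.16, Plbd1, a phospholipase-like granule protein, by 6.99, Chil1 by 7.09 and the interferon-induced Ifit3b by 7.07, all on the log2 scale. Day 2 replicate 2 was the lower of the day 2 samples for Plbd1 (2.88 and 0.808 CPM), so its rise ranged from 6.25 to 8.07 when the replicates were taken singly.

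Among the leading falls were genes of secreted, adhesion and iron-handling proteins. Serpinh1, the collagen chaperone HSP47 (gene 12406, GRCm38, chr7:99345375-99353239), was at 63.5 and 56.9 CPM at day 2 and at 0 and 0.216 CPM at day 6. Its counts fell from 1185 to 2 over the group, a ratio of 542 (95% exact counting interval 149.8 to 4483). Igfbp7, a secreted growth factor binding protein (gene 29817, GRCm38, chr5:77349240-77408045), was at 113 and 103 CPM at day 2 and 0.45 and 1.08 CPM at day 6 (log2 change −7.11, SE 0.28, edgeR adjusted p = 3.93e-09). Heph, the copper-dependent iron oxidase hephaestin, was at 175 and 179.7 CPM in untreated cells, 98.4 and 87.2 CPM at day 2, 14.2 and 10.4 CPM at day 4 and 1.46 and 1.73 CPM at day 6 (log2 change −5.85, SE 0.18, edgeR adjusted p = 1.30e-09). Its change against untreated was −6.78. The neural adhesion gene Chl1 (20.6 and 22.1 CPM at day 2, 0.338 and 0.324 CPM at day 6) and the oxytocin receptor gene Oxtr (25.02 and 24.3 and 0.676 and 0.973 CPM) had log2 fold changes of −5.96 and −4.88 against day 2 and of −5.91 and −4.99 against untreated. Umodl1 changed by −6.20, Nwd1 by −5.59 and the protease inhibitor Pi15 by −5.30 on the log2 scale. In all of these both day 2 samples lay above both day 6 samples.

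Rmrp, the RNA part of the ribonuclease MRP, also ranks among the leading falls, but rests on the day 2 sample that stands apart. It was at 70.6 and 1.53 CPM in day 2 replicates 1 and 2 and at 0.225 and 0.216 CPM at day 6. Its log2 fold change of −7.25 (SE 1.73, edgeR adjusted p = 0.00365) was −2.73 without day 2 replicate 1.

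**Figure D1:**
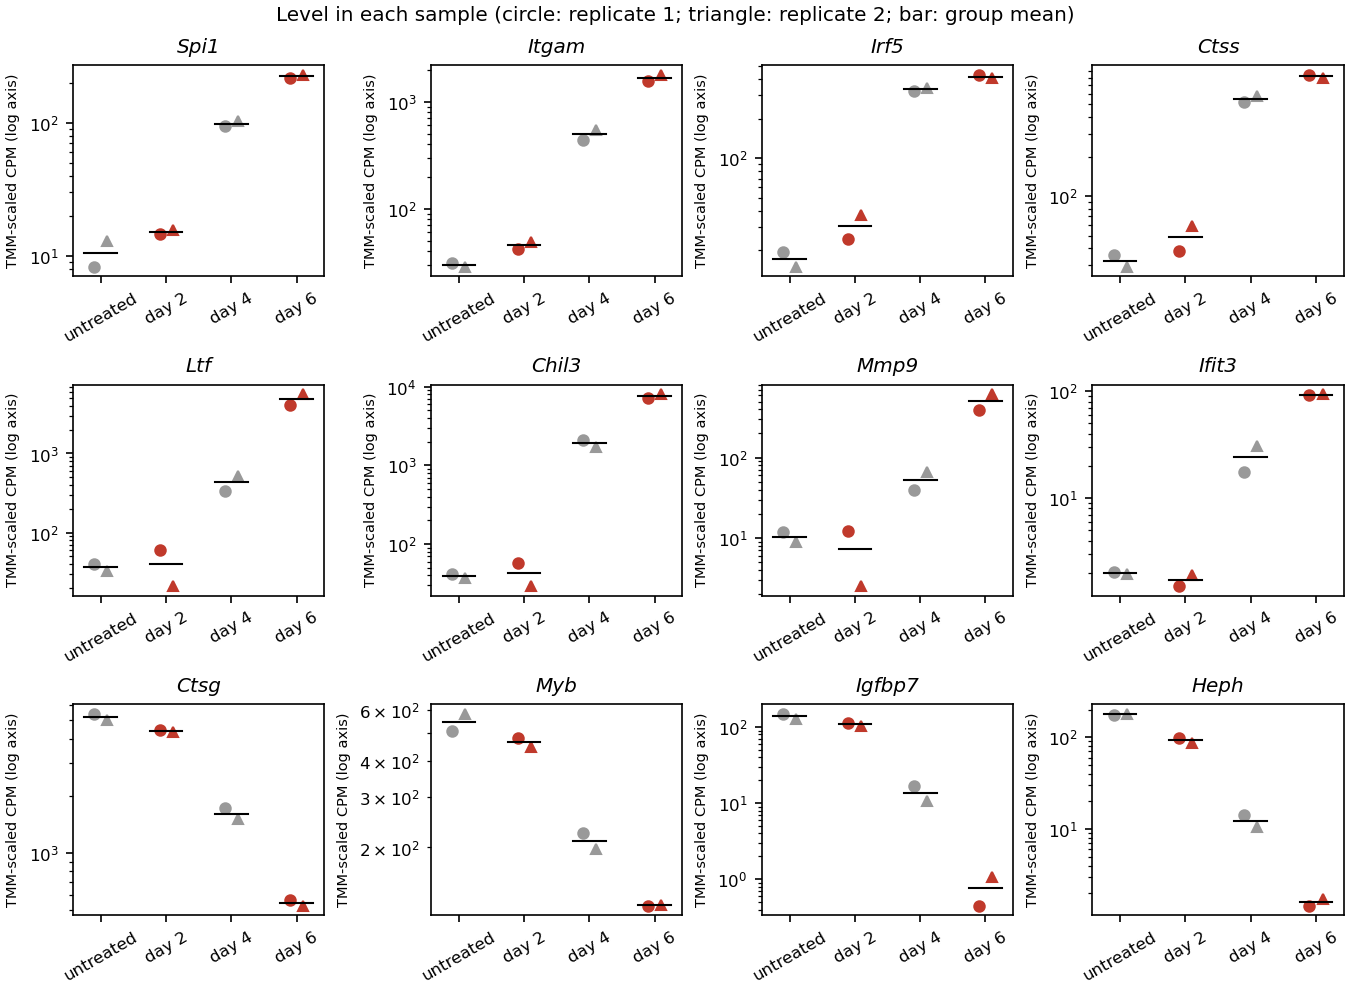
Levels of 12 genes in each of the 8 samples, as TMM-scaled CPM on a log axis; circles are replicate 1, triangles replicate 2, bars the group means, and the day 2 and day 6 samples are red. Spi1 goes from 14.8 and 15.6 CPM at day 2 to 217 and 229 CPM at day 6, and in all 12 panels both day 6 samples lie on the same side of both day 2 samples.

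Myeloid transcription factors moved in both directions. Of 21 tested, 13 rose and 4 fell (median log2 fold change 0.73; 12, 6 and 0.47 under scaling by total counts). Beside Spi1, the interferon regulatory factor Irf5 rose, from 24.2 and 36.9 CPM to 430.02 and 404 CPM (log2 change 3.75, SE 0.16, edgeR adjusted p = 7.28e-09). Maf, a macrophage factor, rose from 1.15 and 2.15 CPM to 15.4 and 14.8 CPM (log2 change 3.14, SE 0.28, edgeR adjusted p = 2.09e-06). Klf4 and Klf2 rose by 2.41 and 2.15, Id2 by 2.63 and the retinoic acid receptor gene Rara by 2.50. The C/EBP factors of granulocytes split: Cebpb, Cebpd and Cebpe rose by 0.73, 0.73 and 0.65, and Cebpa, which acts earlier, fell by 0.62 on the log2 scale. Irf8, a factor of the monocyte line, fell from 1147 and 1309 CPM to 615 and 594 CPM (log2 change −1.02, SE 0.12, edgeR adjusted p = 2.02e-05), with 1323 and 1194 CPM at day 4. Gfi1, a transcriptional repressor needed for neutrophil development, fell from 178 and 147 CPM to 93.5 and 93.5 CPM (log2 change −0.79, SE 0.13, edgeR adjusted p = 0.000215), and Runx1 changed by −0.57. Egr2 (−0.92, edgeR adjusted p = 0.0505), Gata2, Spib and Irf4 were not called. The last pair, Spib and Irf4, were lower at day 6 than in day 2 replicate 1 and higher than in day 2 replicate 2, which is described with the B cell markers below.

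Genes known as PU.1 targets were higher at day 6 in 24 of 26 cases and none fell (median 2.16). The median was 2.15 with day 2 replicate 1 alone and 2.07 with day 2 replicate 2 alone, with 24 rises each time. Itgam (gene 16409, GRCm38, chr7:128062640-128118491) went from 42.3 and 49.3 CPM to 1568 and 1785 CPM (log2 change 5.19, SE 0.14, edgeR adjusted p = 5.90e-10). Pirb, an inhibitory immunoglobulin-like receptor, went from 2.77 and 3.95 CPM to 117 and 124 CPM (log2 change 5.14, SE 0.14, edgeR adjusted p = 5.90e-10). Fcgr1, the high-affinity IgG receptor, went from 3.92 and 7.54 CPM to 136 and 145 CPM (log2 change 4.57, SE 0.21, edgeR adjusted p = 1.23e-08). Ptprc, the pan-leukocyte antigen CD45, rose from 38.3 and 51.3 CPM to 679.998 and 682 CPM (log2 change 3.92, SE 0.13, edgeR adjusted p = 1.53e-09), and Lyz2, lysozyme, from 1362 and 1335 CPM to 18621 and 19489.7 CPM (log2 change 3.82, SE 0.12, edgeR adjusted p = 1.53e-09). Csf1r, the macrophage growth factor receptor, had 39.7 and 31.8 CPM in untreated cells, 89.4 and 128 CPM at day 2, 917 and 919.5 CPM at day 4 and 1008 and 949 CPM at day 6. Its log2 fold change was 3.16 against day 2 and 4.78 against untreated. Btk (0.02, edgeR adjusted p = 0.819) and Tlr4 (0.23, edgeR adjusted p = 0.074) were not called. Against untreated 25 of the 26 rose, with a median of 2.85. The list was assembled as known targets and is not independent evidence of its direction.

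Granule genes divided by granule type. Of 8 primary granule genes 5 fell and 2 rose (median −0.70), whereas 13 of 14 secondary and tertiary granule genes rose and none fell (median 3.53); scaled by total counts, 13 rose and 1 fell. Ctsg, the serine protease cathepsin G (gene 13035, GRCm38, chr14:56099885-56102574), fell from 4455 and 4354 CPM to 562 and 527 CPM (log2 change −3.02, SE 0.11, edgeR adjusted p = 2.54e-09). Elane, neutrophil elastase, fell from 10512 and 10136 CPM to 2829 and 2751 CPM (log2 change −1.89, SE 0.10, edgeR adjusted p = 4.87e-08), although its day 2 level lay above the 8562 and 7471 CPM of untreated cells, so that its fall against untreated was smaller (−1.52). Srgn, the proteoglycan that packs granule proteases, fell from 2777 and 2485 CPM to 473 and 469 CPM (log2 change −2.48, SE 0.11, edgeR adjusted p = 1.10e-08). Prtn3 changed by −0.99 and Ms4a3 by −0.25, and Mpo, myeloperoxidase, was not called (−0.42, edgeR adjusted p = 0.126). Ctsc, the protease that activates the granule serine proteases, rose instead, from 294 and 303 CPM to 1022 and 1025 CPM (log2 change 1.78, SE 0.09, edgeR adjusted p = 2.43e-08), as did Prss57 (1.18).

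Ltf, lactoferrin (gene 17002, GRCm38, chr9:111019292-111042766), rose from 59.9 and 21.1 CPM to 4129.6 and 5588 CPM (log2 change 6.93, SE 0.44, edgeR adjusted p = 1.45e-07). Its day 2 replicates differed, so the rise was 6.34 with replicate 1 alone and 7.84 with replicate 2 alone. Mmp9, the gelatinase of tertiary granules, rose from 12.2 and 2.51 CPM to 393 and 614 CPM (log2 change 6.19, SE 0.44, edgeR adjusted p = 3.77e-07; 5.36 and 7.64 with the day 2 replicates taken singly). Chil1 rose from 1.61 and 0.987 CPM to 149 and 199 CPM. Itgb2l, Lcn2, Pglyrp1, Ngp, Mmp8 and Mmp25 rose by 5.09, 3.74, 3.57, 3.48, 3.47 and 3.27, and Camp, Cd177 and Olfm4 by 2.51, 1.70 and 1.70. Hp, haptoglobin, was not called (−0.22). For all 13 called genes the day 4 mean lay between those of day 2 and day 6. Summed over the list, the secondary and tertiary granule genes stood at 12122 and 9427.8 CPM at day 2, 16245 and 19753 CPM at day 4 and 53702 and 63756 CPM at day 6.

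All 19 late neutrophil genes rose (median 2.90), and all 19 did so with either day 2 replicate alone (medians 2.81 and 2.98). Ly6g, the surface antigen that defines mouse neutrophils, had 2.65 and 0.539 CPM at day 2 and 69.5 and 97.8 CPM at day 6 (log2 change 5.81, SE 0.42, edgeR adjusted p = 3.86e-07). The formyl peptide receptors Fpr1 and Fpr2 went from 0.692 and 0.269 CPM to 22.6 and 38.3 CPM and from 1.15 and 0.269 CPM to 27.5 and 32.9 CPM (log2 fold changes 6.03 and 5.49). The alarmin genes S100a8 and S100a9 rose from 2100.1 and 1479.7 CPM to 17572 and 20284 CPM and from 668 and 386 CPM to 10386 and 14295 CPM (log2 fold changes 3.40 and 4.55). Stfa2l1 (6.56) and Lilr4b (5.53) belong to families of near-identical copies, so their counts are uncertain. The day 2 samples were unequal for Ly6g and Fpr2, replicate 1 being higher, and the day 6 samples lay above both.

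Monocyte and macrophage genes rose in 19 of 20 tested cases, and none fell (median 3.49). The other 5 genes of the list (C1qb, Cd36, Mertk, Marco and Itgax) were not tested. Ms4a6c, a membrane protein of monocytes, rose from 3.57 and 5.65 CPM to 397 and 371 CPM (log2 change 6.34, SE 0.15, edgeR adjusted p = 2.89e-10). C1qc, a complement chain of macrophages, rose from 0.461 and 0.18 CPM to 7.66 and 6.59 CPM (log2 change 4.49, SE 0.43, edgeR adjusted p = 4.04e-06), and C1qa by 3.77. The scavenger receptor gene Msr1 had 3 counts at day 2 and 139 at day 6, a ratio of 50.6 (95% exact counting interval 16.97 to 248). Ms4a7 had 1 count and 30 counts, a ratio of 32.8 (interval 5.45 to 1337). Mrc1, the mannose receptor, rose by 3.94, Fn1, fibronectin, by 3.46, the chemokine receptor gene Ccr2 by 3.52 and Adgre1, which encodes F4/80, by 1.40. Ly6c2, the antigen of inflammatory monocytes, was not called (0.04, edgeR adjusted p = 0.742), and stood at 6109 and 6707 CPM at day 2, 8272 and 8775 CPM at day 4 and 6699 and 6485 CPM at day 6. Neutrophil and macrophage genes thus rose in the same sorted samples. In bulk samples, more cells of a type and more RNA per cell cannot be told apart.

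The effector genes of phagocytes followed. All 6 oxidase genes rose (median 1.39), among them Cybb, the catalytic chain gp91phox, from 1031 and 1058 CPM to 4890.5 and 5128 CPM (log2 change 2.26, SE 0.11, edgeR adjusted p = 2.27e-08), and Ncf4 and Cyba by 1.76 and 1.27. Of 19 pattern recognition genes 18 rose (median 2.73). Tlr8, a sensor of RNA, went from 0.577 and 1.08 CPM to 48.9 and 42.04 CPM (log2 change 5.71, SE 0.23, edgeR adjusted p = 5.27e-09), and Cd14, the lipopolysaccharide co-receptor, from 3.23 and 3.41 CPM to 56.4 and 69.2 CPM (log2 change 4.23, SE 0.18, edgeR adjusted p = 7.28e-09). Tlr1, Tlr13, Tlr2 and Tlr9 rose by 3.94, 3.83, 3.57 and 3.36, and the lectin gene Clec4n by 4.06. Tlr4 was the exception.

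Receptors that receive growth factors, chemoattractants and antibodies rose as a rule. In the cytokine and chemoattractant receptor list 20 of 22 rose and Ifngr1 alone fell (median 2.28), from 777 and 828 CPM to 579 and 561 CPM (log2 change −0.49, SE 0.11, edgeR adjusted p = 0.00192). Cxcr4, the marrow retention receptor, was not called (0.10). Il10ra rose from 1.85 and 2.78 CPM to 129 and 124 CPM (log2 change 5.74, SE 0.16, edgeR adjusted p = 6.84e-10), and C5ar1, the receptor for complement C5a, from 9.92 and 5.92 CPM to 91.8 and 113 CPM (log2 change 3.72, SE 0.22, edgeR adjusted p = 9.60e-08). Csf3r, the receptor for granulocyte colony-stimulating factor, rose by 1.98, Csf2ra by 1.47 and Cxcr2 by 3.28. Fc receptor and integrin genes rose in 11 of 12 cases (median 1.96; 10 up and 1 down under scaling by total counts), Fcgr4 by 4.02 and Itgb7 from 201 and 256 CPM to 1102 and 1080.2 CPM (log2 change 2.26, SE 0.14, edgeR adjusted p = 1.20e-07). The Fc gamma receptor genes resemble each other, so reads may be divided wrongly among them. Itgb1 was not called (−0.14), and the rise of Fcgr2b was small (0.18). All 14 inhibitory receptor and phosphatase genes rose (median 3.10, and 4.45 against untreated). Siglece, a sialic acid receptor that damps activation, went from 0.461 and 0.359 CPM to 30.4 and 40.4 CPM (log2 change 6.41, SE 0.29, edgeR adjusted p = 1.12e-08). Clec4a2 went from 8.30 and 9.96 CPM to 411 and 424 CPM (log2 change 5.50, SE 0.12, edgeR adjusted p = 2.45e-10), and Lilrb4a and Cd33 rose by 5.37 and 5.12. The phosphatases themselves, Ptpn6 and Inpp5d, rose by 1.06 and 0.69.

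**Figure D2:**
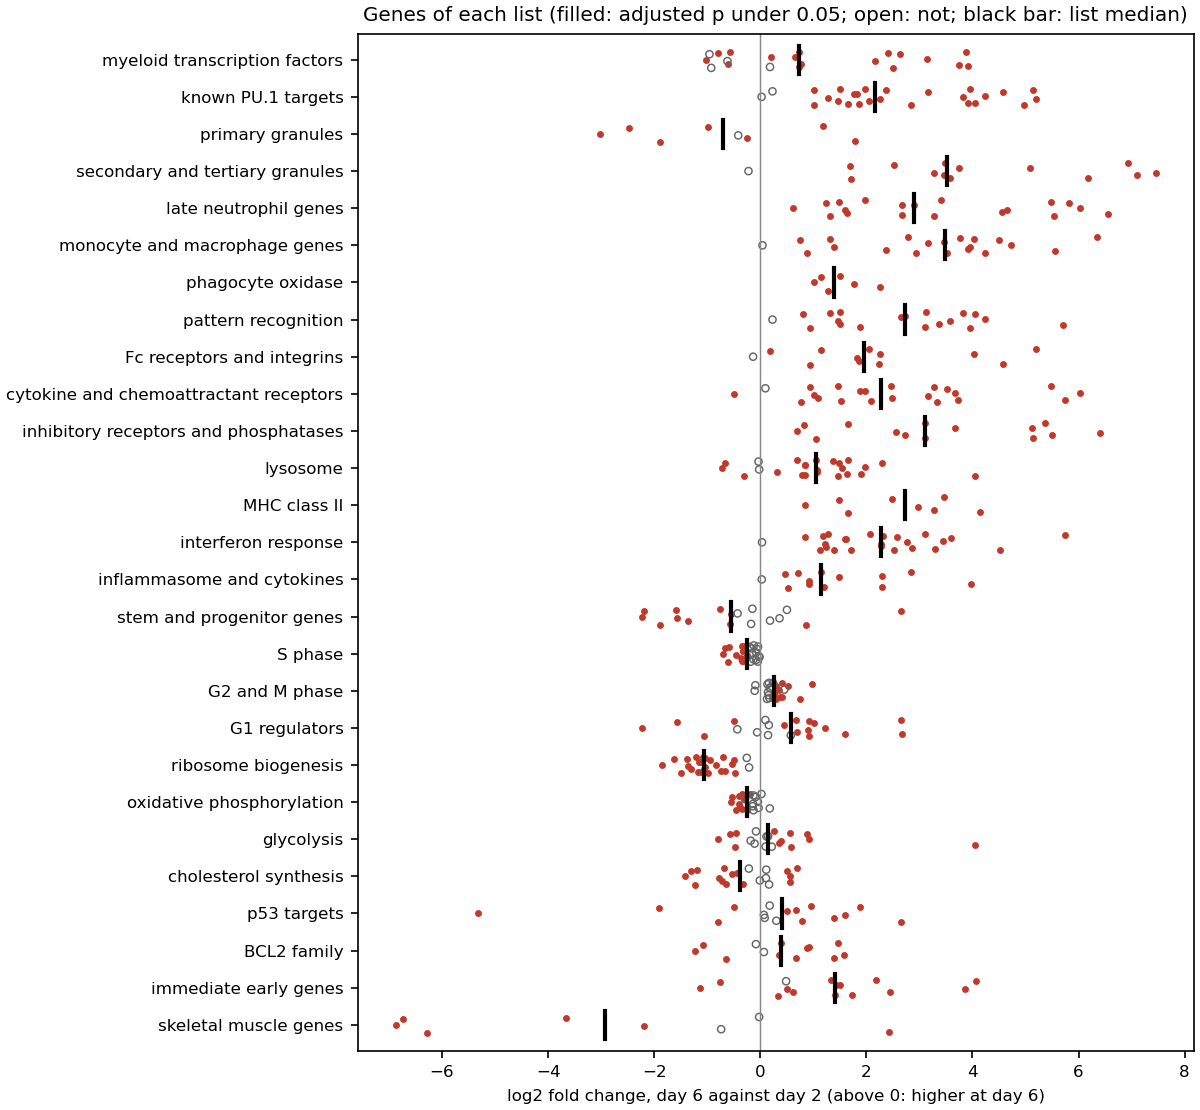
Log2 fold change, day 6 against day 2, of each tested gene of 27 lists; filled points passed the test (adjusted p under 0.05), open points did not, and black bars are list medians. Medians run from −2.92 (skeletal muscle genes) to 3.53 (secondary and tertiary granules), and all 19 late neutrophil genes lie above 0.

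Lysosome genes rose in 19 of 24 cases and fell in 3 (median 1.06). Ctss, cathepsin S, rose from 38.3 and 59.1 CPM to 840.3 and 793 CPM (log2 change 4.06, SE 0.17, edgeR adjusted p = 6.53e-09), and Psap, the precursor of the saposins, from 1460.3 and 1779 CPM to 8107 and 7743 CPM (log2 change 2.29, SE 0.13, edgeR adjusted p = 5.08e-08). Ctsb rose by 1.91 and Asah1, acid ceramidase, by 1.97. The hydrolase genes Gaa (50.9 and 53.8 CPM at day 2, 33.8 and 29.9 CPM at day 6) and Gla (−0.67) fell, as did Cd63 (−0.30). For 7 of the 22 called lysosome genes the day 4 mean lay beyond the day 6 mean. Among MHC class II genes all 8 rose (median 2.73), but 6 did with day 2 replicate 1 alone. Cd74, the invariant chain, was at 19.95 and 8.62 CPM at day 2 and 242 and 248 CPM at day 6 (log2 change 4.14, SE 0.24, edgeR adjusted p = 6.20e-08), and its rise was 3.62 and 4.82 with the day 2 replicates taken singly. H2-DMa, a peptide loader, rose from 3.81 and 5.48 CPM to 56.8 and 47.4 CPM (log2 change 3.46, SE 0.17, edgeR adjusted p = 2.54e-08). Day 2 replicate 1 also had the higher sum of B cell markers (782 CPM, against 436 CPM in day 2 replicate 2). Ighm was the largest part of that sum, which stood at 645 and 741 CPM at day 4. The B cell marker Cd79b was at 24.9 and 1.17 CPM at day 2 and at 1.27 and 1.66 CPM at day 4. The sum thus did not follow Cd79b. B cells express MHC class II, and the part of B cells in the result was not tested.

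Interferon response genes rose in 24 of 25 cases and none fell (median 2.28, and 2.43 against untreated). Ifit3 (gene 15959, GRCm38, chr19:34583119-34588982) was at 1.499 and 1.88 CPM at day 2, 17.5 and 30.7 CPM at day 4 and 92.3 and 93.5 CPM at day 6 (log2 change 5.75, SE 0.27, edgeR adjusted p = 1.69e-08). Its near-copy Ifit3b may share reads with it. Rsad2, the antiviral enzyme viperin, rose from 7.38 and 7.54 CPM to 158 and 183 CPM (log2 change 4.51, SE 0.22, edgeR adjusted p = 1.91e-08), and the RNA-sensing synthetases Oas3 and Oas2 by 3.60 and 3.44. Among the factors that carry the signal, Stat2 rose by 1.22, Irf9 by 1.27 and Irf7 by 3.30. Summed over the list, the levels were 1154 and 1201 CPM in untreated cells, 1290.2 and 1210.5 CPM at day 2, 2381 and 3214 CPM at day 4 and 5205 and 5419.8 CPM at day 6. For 23 of the 24 called genes the day 4 mean lay between those of day 2 and day 6. Of 13 inflammasome and cytokine genes 12 rose (median 1.15). The inflammasome gene Nlrc4 rose from 0.692 and 1.71 CPM to 20.04 and 19.6 CPM (log2 change 3.97, SE 0.27, edgeR adjusted p = 2.20e-07). Nlrp3 rose by 2.29, Il18 by 2.29 and Il1b by 2.83. Gbp3 (0.03) and Aim2 (0.03) were not called.

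Immediate early genes rose in 12 of 15 cases and fell in 2 (median 1.40). Atf3, a stress-induced factor, rose from 1.04 and 1.44 CPM to 21.4 and 21.2 CPM (log2 change 4.07, SE 0.30, edgeR adjusted p = 4.77e-07), and Nr4a1, an orphan nuclear receptor, from 2.88 and 7.09 CPM to 72.1 and 79.2 CPM (log2 change 3.86, SE 0.24, edgeR adjusted p = 1.16e-07). Klf6 rose from 56.4 and 58.3 CPM to 312 and 315 CPM (log2 change 2.45, SE 0.07, edgeR adjusted p = 1.20e-09), and Fos, Junb and Jun by 1.498, 1.40 and 1.33. Egr1 fell, from 23.5 and 35.004 CPM to 12.9 and 13.9 CPM (log2 change −1.13, SE 0.21, edgeR adjusted p = 0.00078), and Dusp2 by 0.77 on the log2 scale. Against untreated the list had 10 up and 3 down with a median of 0.72. For Fos the levels were 477 and 582 CPM untreated, 306 and 534 CPM at day 2 and 1167 and 1211 CPM at day 6, and for Junb 123 and 136, 71.5 and 84.7 and 209 and 204 CPM. For Junb both day 2 samples lay below both untreated samples, and for Fos the groups overlapped.

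Progenitor genes mostly fell. Of 17 stem and progenitor genes tested, 9 fell and 2 rose (median −0.56). Cdk6, a cell cycle kinase of immature blood cells (gene 12571, GRCm38, chr5:3341004-3531008), fell from 118 and 126 CPM to 29.5 and 22.7 CPM (log2 change −2.23, SE 0.11, edgeR adjusted p = 2.69e-08). Myb, a factor that keeps progenitors cycling, fell from 481 and 449 CPM to 126 and 126 CPM (log2 change −1.88, SE 0.09, edgeR adjusted p = 2.27e-08). Angpt1 fell from 32.8 and 27.4 CPM to 6.87 and 6.27 CPM (log2 change −2.19, SE 0.21, edgeR adjusted p = 4.57e-06), and Kit, the stem cell factor receptor, from 114 and 106 CPM to 34.9 and 38.3 CPM (log2 change −1.58, SE 0.09, edgeR adjusted p = 7.10e-08). Erg, an ETS factor of stem cells, went the other way from low levels, 0.692 and 0.359 CPM at day 2 and 3.04 and 3.46 CPM at day 6 (log2 change 2.65, SE 0.48, edgeR adjusted p = 0.000636). Prom1 rose by 0.86 but was not called without day 2 replicate 1 (0.65) or day 6 replicate 2 (0.68). Lin28b, Gata2, Cd34, Lmo2 and Flt3 were not called. Meis1, Hoxa7, Hoxa9, Hoxa10, Mecom, Mycn and Tal1 were not tested.

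Among growth and cell cycle genes, those of ribosome production moved most uniformly. Ribosome biogenesis genes fell in 24 of 26 cases and none rose (median −1.06, and −1.04 against untreated), with 25 and 23 falls when day 2 replicates 1 and 2 were taken singly. Gnl3, nucleostemin, fell from 40.7 and 50.5 CPM to 13.4 and 11.995 CPM (log2 change −1.85, SE 0.24, edgeR adjusted p = 4.99e-05), and Dkc1, the pseudouridine synthase dyskerin, from 117 and 126 CPM to 39.1 and 39.7 CPM (log2 change −1.63, SE 0.12, edgeR adjusted p = 3.67e-07). Rrs1 and Nop58 changed by −1.503 and −1.39, and Fbl (−0.25) and Pes1 (−0.21, edgeR adjusted p = 0.0524) were not called. Myc, which drives such genes, fell from 121 and 129 CPM to 43.7 and 40.2 CPM (log2 change −1.58, SE 0.33, edgeR adjusted p = 0.00165), with unequal untreated samples (110.01 and 230.4 CPM).

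Of 27 S phase genes 14 fell and none rose (median −0.26). The dUTPase gene Dut fell from 135 and 137 CPM to 84.0004 and 82.9 CPM (log2 change −0.71, SE 0.09, edgeR adjusted p = 5.75e-05), and the helicase subunit gene Mcm2 from 286 and 307 CPM to 195 and 192 CPM (log2 change −0.62, SE 0.08, edgeR adjusted p = 4.28e-05). Gins2 and Mcm6 changed by −0.67 and −0.58. Against untreated 4 fell and 3 rose (median −0.04), and Gins2 for example stood at 32.2 and 33.03 CPM at day 2 and at 25.9 and 19.7 CPM untreated. The 14 falls became 8 without day 2 replicate 2, 7 when day 6 replicate 1 was left out and 23 under scaling by total counts. Of 25 G2 and M phase genes 13 rose and none fell (median 0.25), Kif23, a kinesin of cell division, from 46.8 and 55.9 CPM to 101 and 102 CPM (log2 change 0.98, SE 0.10, edgeR adjusted p = 7.94e-06), Nusap1 by 0.74 and Cenpf by 0.51. Under scaling by total counts Cenpf was not called (0.25), and the median was −0.01, with 2 up and 2 down, so no direction is given for the list; the rises were 7 without day 2 replicate 1, and 8 and 7 when day 6 replicates 1 and 2 were left out. Mki67, the proliferation antigen, was not called (0.45, edgeR adjusted p = 0.0956).

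Of 21 G1 regulators 11 rose and 4 fell (median 0.57, and 0.36 with 10 up and 4 down under scaling by total counts). Mxd1, an antagonist of Myc, rose from 42.1 and 33.6 CPM to 216 and 264 CPM (log2 change 2.67, SE 0.16, edgeR adjusted p = 8.51e-08), and Btg2, an antiproliferative gene, from 19.6 and 15.7 CPM to 105 and 115 CPM (log2 change 2.65, SE 0.17, edgeR adjusted p = 1.34e-07). Ccnd1 rose by 1.60 and the inhibitor genes Cdkn2d and Cdkn1b by 1.01 and 0.68, while Cdk4 changed by −1.06 and Cdkn1a, which encodes p21, by −0.49.

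Metabolic lists moved by small amounts with Slc2a3 as the exception in size. Of 21 oxidative phosphorylation genes 11 fell and none rose (median −0.26), Ndufa4 from 254 and 249 CPM to 171 and 173 CPM (log2 change −0.55, SE 0.07, edgeR adjusted p = 7.20e-05) and the ATP synthase gene Atp5b by 0.53 on the log2 scale. The count was 7 without day 2 replicate 2, 6 when day 6 replicate 1 was left out and 17 under scaling by total counts. Of 19 glycolysis genes 8 rose and 4 fell; the median of 0.15 became −0.12 under scaling by total counts, with 3 up and 7 down. Slc2a3, the glucose transporter GLUT3, stood out in size, at 9.88 and 10.4 CPM untreated, 11.5 and 10.9 CPM at day 2, 21.6 and 34.4 CPM at day 4 and 161 and 207 CPM at day 6 (log2 change 4.04, SE 0.20, edgeR adjusted p = 2.09e-08). Hk2 rose by 0.92, and Pfkm and Pfkl changed by −0.80 and −0.58. Gapdh has many near-identical pseudogenes and few counts here, so its change is uncertain (0.89, not called under scaling by total counts (0.62), by DESeq2 (0.91), or in fits lacking day 2 replicate 1 (0.63), day 6 replicate 1 (0.98) or day 6 replicate 2 (0.78)).

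Of 20 cholesterol synthesis genes 11 fell and 4 rose (median −0.39, and −0.09 against untreated). Under scaling by total counts 12 fell and 1 rose (median −0.64). Sqle, squalene epoxidase, fell from 23.9 and 22.8 CPM to 9.35 and 10.6 CPM (log2 change −1.22, SE 0.20, edgeR adjusted p = 0.000237), and Dhcr7, which makes the last step to cholesterol, from 63.3 and 58.8 CPM to 28.04 and 25.6 CPM (log2 change −1.18, SE 0.11, edgeR adjusted p = 2.75e-06). Idi1 changed by −1.30 against day 2 and by −0.49 against untreated (edgeR adjusted p = 0.109). Mvd rose by 0.69. For 8 of the 15 called genes (53.3%) the day 4 mean lay between the day 2 and day 6 means, against 84.4% and 90.6% of all higher and lower genes.

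Survival genes changed in both directions. Of 13 BCL2 family genes 8 rose and 3 fell (median 0.38), and under scaling by total counts 5 rose and 4 fell (median 0.12). Among antiapoptotic members Mcl1 rose from 171.8 and 171.970 CPM to 477 and 477 CPM (log2 change 1.47, SE 0.09, edgeR adjusted p = 1.24e-07) and Bcl2l1 by 0.88, while Bcl2 fell from 30.7 and 34.7 CPM to 14.9 and 12.97 CPM (log2 change −1.24, SE 0.15, edgeR adjusted p = 2.58e-05). Among proapoptotic members Bmf rose from 44.2 and 43.8 CPM to 139.5 and 122 CPM (log2 change 1.57, SE 0.12, edgeR adjusted p = 6.62e-07), Pmaip1 by 1.40 and Bcl2l11 by 0.92, and Bik changed by −1.09. Of 16 genes known as p53 targets 8 rose and 4 fell (median 0.41) in cells described as lacking p53, and under scaling by total counts 6 rose and 4 fell (median 0.15). Trp53inp1 rose from 45.4 and 30.2 CPM to 135 and 139.5 CPM (log2 change 1.88, SE 0.18, edgeR adjusted p = 4.94e-06). Gdf15, a stress cytokine, had 54 counts at day 2 and 1 at day 6, a ratio of 49.4 (95% exact counting interval 8.50 to 1988), and Phlda3 changed by −1.90 at low levels, and was not called by DESeq2 (−1.95) or without day 6 replicate 1 (−1.68). Mdm2 rose by 0.51, and Bax (0.07) and Ccng1 (0.08) were not called.

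The skeletal muscle genes that this leukaemia expressed were mostly lower at day 6 than at day 2. Of 8 tested, 5 fell and 1 rose (median −2.92, or −2.64 with Chrng at its bound). Myog, the muscle factor myogenin (gene 17928, GRCm38, chr1:134290004-134292548), was at 61.3 and 73.6 CPM untreated, 18.7 and 30.2 CPM at day 2, 0.635 and 0.78 CPM at day 4 and 0.113 and 0.324 CPM at day 6 (log2 change −6.73, SE 0.44, edgeR adjusted p = 1.72e-07). Tpm2, a tropomyosin, had 191 counts at day 2 and 2 at day 6, a ratio of 87.4 (95% exact counting interval 23.9 to 727). Chrng, the fetal acetylcholine receptor subunit, had 28 counts at day 2 and 0 at day 6, at least 8.54-fold lower with 3 counts over the group taken as the floor. Mylpf changed by −3.66. The fast troponin gene Tnni2 rose, from 1.61 and 3.05 CPM to 11.9 and 14.05 CPM (log2 change 2.43, SE 0.27, edgeR adjusted p = 1.32e-05).

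The list medians can be set beside those against untreated cells. The median of PU.1 targets was 2.16 against day 2 and 2.85 against untreated, of inhibitory receptors 3.10 and 4.45, and of secondary and tertiary granules 3.53 and 4.13. Immediate early genes (1.40 and 0.72), S phase genes (−0.26 and −0.04), cholesterol synthesis genes (−0.39 and −0.09) and primary granule genes (−0.70 and −0.24) had the larger size against day 2. These comparisons share the day 6 samples, and the difference between them was not tested here.

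**Figure D3:**
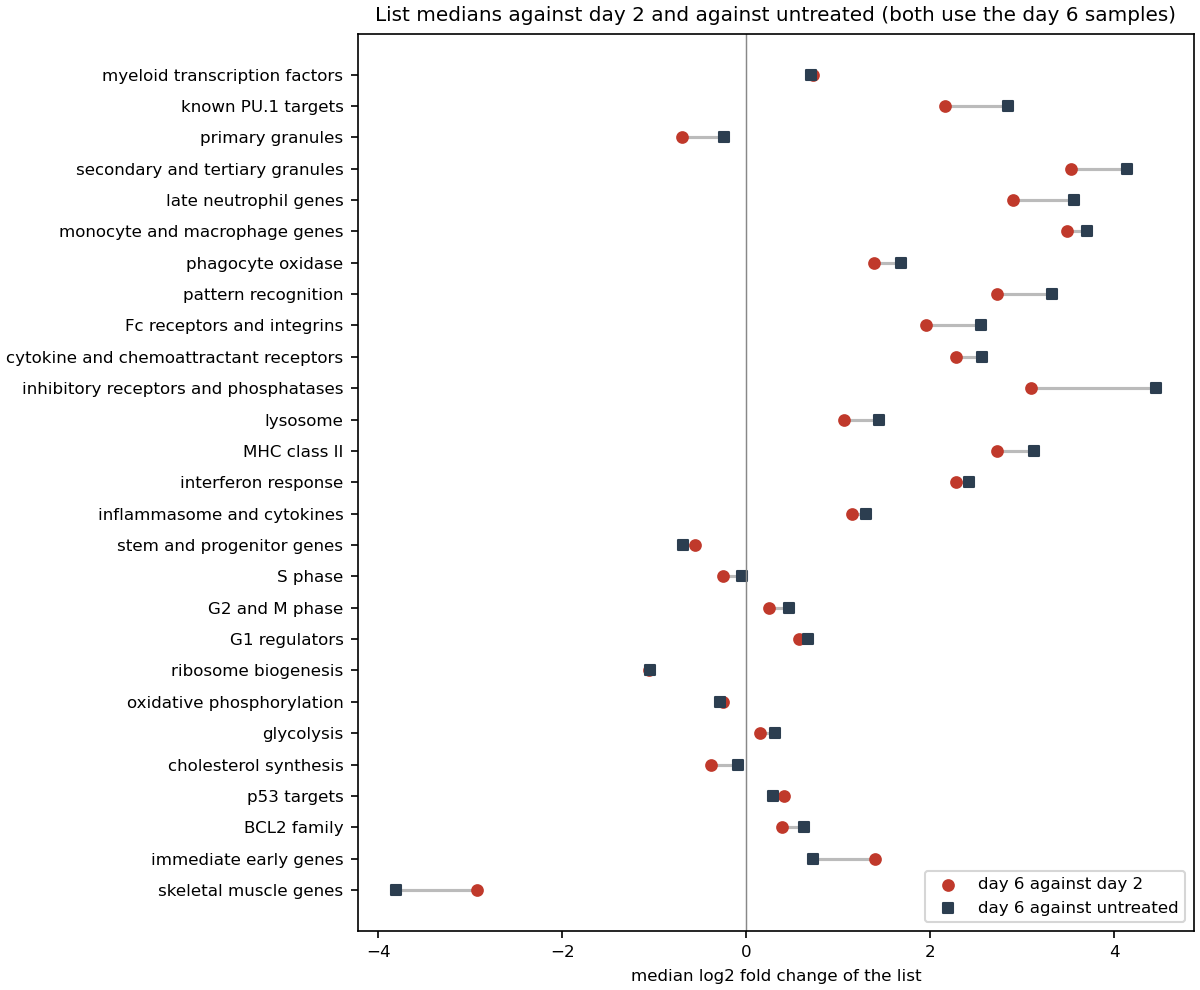
Median log2 fold change of each of 27 lists for day 6 against day 2 (red circles) and day 6 against untreated (dark squares); both use the same day 6 samples. The pairs lie close for ribosome biogenesis (−1.06 and −1.04) and apart for inhibitory receptors and phosphatases (3.10 and 4.45).

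Some differences from untreated cells were not called once both sides had Dox. Adgrg1, an adhesion G protein-coupled receptor of blood stem cells (gene 14766, GRCm38, chr8:94974756-95014208), was at 43.8 and 39.6 CPM untreated, 6.46 and 4.67 CPM at day 2, 3.27 and 2.24 CPM at day 4 and 7.54 and 7.997 CPM at day 6. Its log2 fold change was −2.42 against untreated (edgeR adjusted p = 1.62e-07) and 0.50 against day 2 (edgeR adjusted p = 0.0522). Med21, a Mediator subunit, was at 23.8 and 23.5 CPM untreated, 56.9 and 54.9 CPM at day 2 and 63.2 and 64.2 CPM at day 6, with log2 fold changes of 1.43 and 0.19. Vcam1, an adhesion molecule (27.7 and 18.04 CPM at day 2, 29.8 and 31.3 CPM at day 6), Tmem41b (11.3 and 10.2 and 12.8 and 15.02 CPM) and Pafah1b3 (12.1 and 6.19 and 13.6 and 12.2 CPM) rose against untreated by 1.47, 1.38 and 1.59, and had 0.43, 0.38 and 0.52 against day 2. Socs3, a brake on cytokine signals, was at 47.3 and 39.997 CPM untreated, 19.7 and 28.7 CPM at day 2 and 20.9 and 20.2 CPM at day 6 (log2 fold changes −1.09 and −0.25). Cyp26a1, the retinoic acid hydroxylase (−1.16 and 0.01), rested on unequal untreated samples (60.9 and 20.4 CPM), and Tmem87b had −1.07 and −0.33. A p above the threshold does not show that these levels were equal: the adjusted p against day 2 was 0.0513 for Vcam1, 0.0555 for Tmem41b and 0.0566 for Med21. Without day 2 replicate 1, Vcam1, Adgrg1, Pafah1b3 and Socs3 were called (0.76, 0.73, 1.06 and −0.48). Adgrg1 was also called without either day 4 replicate (0.50), Med21 without either untreated replicate (0.19) and Tmem41b without untreated replicate 1 (0.38). Scaled by total counts, Socs3 (−0.52) and Tmem87b (−0.58) were called, and with relative log expression size factors Vcam1 (0.44), Med21 (0.20) and Adgrg1 (0.51) were. Vcam1 was called too when only the samples compared were fitted (0.43).

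Taken singly, the day 2 samples gave 6393 calls (replicate 1 alone) and 6575 (replicate 2 alone). Of the 7383 calls, 5603 were also made, in the same direction, with each replicate as the only day 2 sample. A further 541 were called with replicate 1 only, 749 with replicate 2 only and 490 with neither. Among lists, the PU.1 targets, late neutrophil genes, oxidase genes and inhibitory receptors had the same number of calls with either sample. Among the genes that rested on replicate 1 were noncoding RNAs. Rn7sk, the RNA that restrains transcription elongation, was at 223 and 3.32 CPM at day 2 and 2.03 and 2.27 CPM at day 6, and its change of −5.69 became −0.63 without that sample. Rpph1, the RNA of ribonuclease P, was at 82.8 and 1.08 CPM and 0.45 and 0.648 CPM (−6.19, and −0.95 without it), and was not called without day 6 replicate 1 (−5.97). The desaturase gene Scd1 (28.3 and 3.86 CPM at day 2, 6.98 and 6.92 CPM at day 6) had −2.02 with replicate 1 alone and 0.84 with replicate 2 alone, and St6gal1 −1.001 and 0.69. Scaled by total counts, Scd1 (−1.35) and Lpl (−0.80) were called. Genes called with replicate 2 alone included the lipase gene Lpl (48.5 and 96.2 CPM at day 2, 56.9 and 45.5 CPM at day 6; 0.08 and −0.91), Sbk1 (−0.27 and 1.504), Stfa1 (0.17 and 1.36) and Pafah1b3 (0.09 and 1.06).

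**Figure D4:**
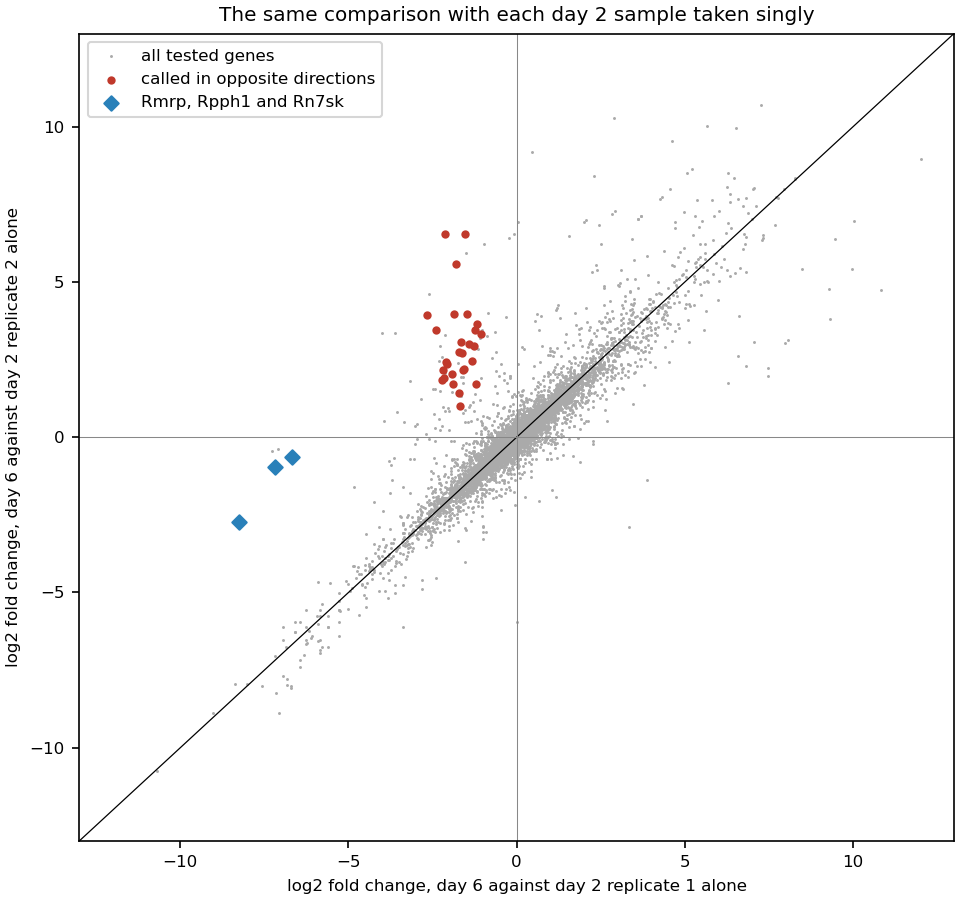
Log2 fold change of tested genes at day 6 with day 2 replicate 1 (horizontal) or replicate 2 (vertical) as the only day 2 sample. The diagonal is equality, and genes beyond the range of either axis are not drawn. Red points are the 28 genes called in opposite directions, all lower than replicate 1 and higher than replicate 2; blue diamonds are Rmrp, Rpph1 and Rn7sk, at −8.24, −7.20 and −6.69 on the horizontal axis.

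In 28 genes the direction itself depended on the day 2 sample, and in all 28 the day 6 level lay below day 2 replicate 1 and above day 2 replicate 2. Among them were 8 of the 13 B cell markers. Cd79b, a chain of the B cell receptor, was at 24.9 and 1.17 CPM at day 2 and 7.77 and 11.02 CPM at day 6, a log2 fold change of −1.40 with replicate 1 alone and 2.996 with replicate 2 alone. The B cell markers Blk, Pax5, Ms4a1, Ebf1, Fcrla and Cd79a were also among them. Genes of the antibody chains (Igkc, Iglc2, Igkv8-30 and Ighv5-4), of B and plasma cells (Pou2af1, Mzb1, Irf4, Spib and Slamf7) and the mitochondrial ribosomal RNAs (mt-Rnr1 and mt-Rnr2) did the same. Igkc, the kappa constant chain, was at 40.6 and 1.88 CPM at day 2 and 8.90 and 10.5 CPM at day 6, and mt-Rnr1 at 1164 and 132 CPM and 337 and 379 CPM. With both day 2 samples, 0 of the 13 B cell markers rose and Igll1 fell (−1.09, edgeR adjusted p = 0.0305). Igll1 was not called without day 2 replicate 1 (−0.33), day 6 replicate 1 (−1.12) or day 6 replicate 2 (−1.08). With replicate 1 alone 11 fell (median −1.59), and with replicate 2 alone 9 rose (median 2.05). Summed, the 13 markers stood at 782 and 436 CPM at day 2, 577 and 582 CPM at day 6, 645 and 741 CPM at day 4 and 505 and 332 CPM in untreated samples, with Ighm the largest part. No direction between day 6 and day 2 is given for B cell genes.

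**Figure D5:**
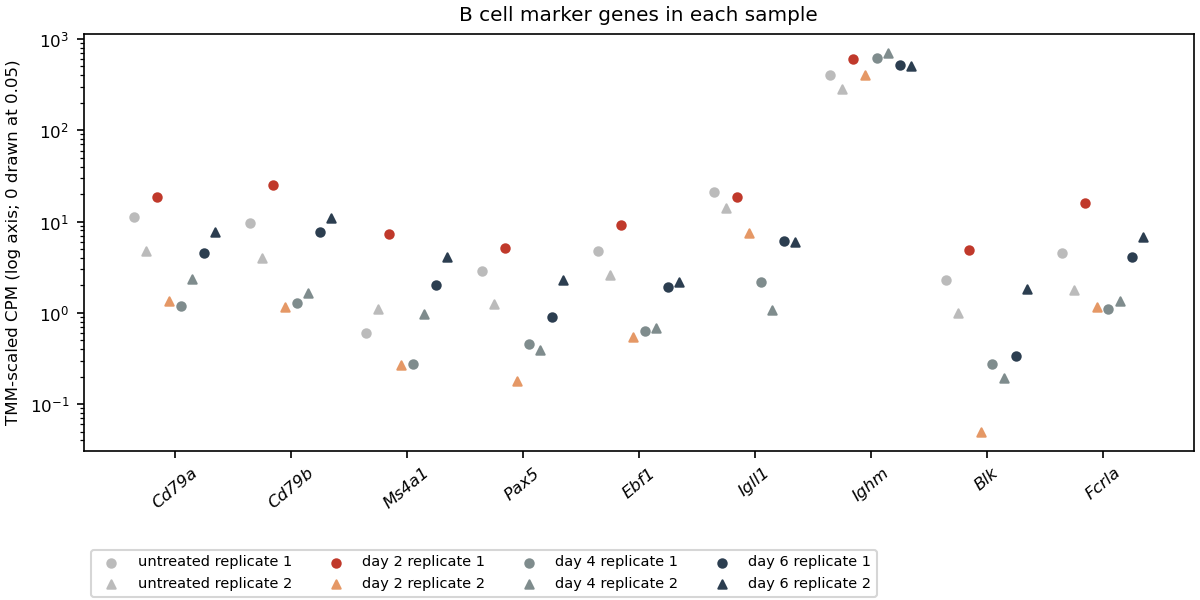
TMM-scaled CPM (log axis) of 9 B cell markers named in the text in each of the 8 samples; circles are replicate 1 and triangles replicate 2, and 0 is drawn at 0.05. For Cd79b the day 6 samples (7.77 and 11.02 CPM) lie between day 2 replicate 2 and day 2 replicate 1 (24.9 and 1.17 CPM, replicate 1 first).

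Markers of other cell types were examined in the same way. Erythroid markers rose in 5 of 7 cases and fell in 1 (median 3.43), with sums of 18.6 and 14.1 CPM at day 2 and 46.3 and 69.1 CPM at day 6. Hba-a1, an alpha globin with a near-identical copy, was at 1.04 and 0.269 CPM and 7.09 and 10.7 CPM (log2 change 3.83, SE 0.63, edgeR adjusted p = 0.000288), and Slc4a1, the red cell anion exchanger, had 2 counts at day 2 and 93 at day 6. Hbb-bt, Epor, Ermap and Car1 were not tested. Of 15 T and NK cell markers 3 were tested, and Nkg7 fell (log2 change −1.02, SE 0.11, edgeR adjusted p = 7.54e-06); Cd3e, Cd3d, Cd3g, Cd4 and Cd8a were not among the tested genes. Among mast cell, basophil and eosinophil markers Mcpt8 fell from 41.6 and 48.4 CPM to 6.76 and 5.94 CPM (log2 change −2.83, SE 0.21, edgeR adjusted p = 4.63e-07) and Prss34, Il5ra and Siglecf rose by 2.50, 2.05 and 1.503, with list sums of 64.2 and 64.1 CPM at day 2 and 42.0 and 39.9 CPM at day 6. Dendritic cell markers rose in 3 of 6 cases (3 up and 1 down under scaling by total counts), Clec9a to 3.72 and 3.46 CPM. Ccr9 (2.21) was not called by DESeq2 (2.20) or without day 2 replicate 2 (1.47), day 6 replicate 1 (2.04) or day 6 replicate 2 (2.35). The list summed to 34.7 and 27.8 CPM at day 2 and 35.1 and 26.6 CPM at day 6. Of 4 megakaryocyte markers 2 fell (Vwf by 1.28 on the log2 scale, and Gp1bb by 0.56). Gp1bb was not called without day 2 replicate 1 (−0.33), day 6 replicate 1 (−0.60) or day 6 replicate 2 (−0.52). Of 4 stroma and endothelium markers Pdgfrb fell from 49.7 and 49.3 CPM to 2.82 and 3.78 CPM (log2 change −3.90, SE 0.15, edgeR adjusted p = 3.60e-09), Cxcl12 changed by −1.33 and Acta2 by 1.60, which was not called without day 6 replicate 2 (1.22); Col1a1, Col1a2, Col3a1, Cdh5 and Tek were not tested. The part of other cell types in the results above was not tested.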

How the data were processed

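RNA was counted in 8 samples of GFP-positive AML410 cells, 2 untreated and 2 at each of days 2, 4 and 6 on Dox. Per the file headers, the authors deposited a raw count and a gene length, given in bases, for each Entrez gene ID in each sample. Per the submitters' processing notes the build was mm10, and the tools were featureCounts, CASAVA 1.8.2, limma 3.22.0 and edgeR 3.8.2. The aligner and strand setting were not given in the sources used here. Overlapping or antisense genes, and near-identical copies, may therefore share reads. The deposited gene length, a value of another kind than the counts, was not used.

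The tables hold 12830 genes. RefSeq (GRCm38.p6) gave a symbol for 12555, and the other 275 held 2.24% of counts over all samples. Their share was 15.6% in day 2 replicate 1 and 0.434 to 0.631% in each other sample. A second such ID held 1.13% of day 2 replicate 1 and at most 0.0119% of any other sample. Genes of low counts were removed with filterByExpr (500 genes, 0.0267% of counts), leaving 12330. All 8 samples entered 1 group means fit without covariates in R 4.3.3, with TMM scaling (factors 0.849 to 1.18) and the edgeR 4.0.16 quasi-likelihood test (biological coefficient of variation 8.34%, 4 residual and 7.08 prior degrees of freedom), adjusted over 12330 genes at 0.05. The script was tested on simulated data. Replicates within a group varied by about sampling noise or more (median chi-square over genes from 0.700 at day 6 to 4.78 at day 2). No pair was treated as copies. The chi-square used total counts without TMM scaling, and 1 gene ID held 13.3% of day 2 replicate 1. The day 2 value therefore also holds a shift of all other genes. With TMM scaling, the median absolute log2 difference was 0.0993 at day 2 and 0.138 in untreated samples. Ratios with 95% exact intervals stand in for fold changes where a group had 1 to 3 counts. Intervals and floors cover counting error only.

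The members, the 27 gene lists, the 7 lists of cell markers (540 genes in all, 481 tested) and the rule for named genes were chosen with earlier results of these data known. Named are Spi1, Trp53, the 12 largest rises and falls that were called with each day 2 replicate alone, did not overlap and had an average log2 CPM of at least 3, up to 4 called members per list and 2 of its rarer direction, 2 per marker list, up to 4 genes resting on each day 2 replicate, and up to 4 each way called only against untreated. Other members, singled out for small counts or as exceptions, were named after their values were seen. Some genes that the rule names are not reported here. Alternatives were DESeq2 1.42.0, other size factors, total-count scaling, no filter, fitting only the samples compared, a 1.5-fold minimum, a replicate block and leaving out each sample. Alternatives for calls with each day 2 replicate singly were chosen after seeing the data.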

Additional observations from a re-analysis of the deposited data

How the results depend on the processing

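Over the genes that the naming rule gives and all alternatives, a gene kept its side of the threshold in 2399 cases, lost the call in 52 and gained it in 23, and no change called in the main comparison or under the alternative turned its sign. The 28 genes called in opposite directions with each day 2 replicate alone, Cd79b among them, are not part of this count. Scd1, St6gal1, Sbk1, Lpl, Med21, Cyp26a1 and Socs3, not called against day 2, changed sign under at least 1 alternative without being called. The calls for day 6 against day 2 numbered from 5912 to 7724 when 1 sample was left out, and 3174 remained against a 1.5-fold minimum, or 3674 for day 6 against untreated. DESeq2 gave 6201 calls. A minimum of 1.5-fold left 10 calls among myeloid transcription factors, 6 among stem and progenitor genes, 0 among S phase genes, 1 among G2 and M phase genes, 0 among oxidative phosphorylation genes, 3 in glycolysis, 4 in cholesterol synthesis, 7 among p53 targets, 7 in the BCL2 family, 0 among B cell, 1 among megakaryocyte and 1 among dendritic cell markers. Scaling by total counts gave 23 calls for S phase, 4 for G2 and M phase, 17 for oxidative phosphorylation and 3 for B cell markers, and DESeq2 gave 1 for dendritic cell markers. With 1 sample left out, calls ranged from 7 to 15 (S phase), 7 to 18 (G2 and M phase), 6 to 12 (oxidative phosphorylation), 0 to 11 (B cell), 1 to 2 (T and NK cell), 1 to 3 (megakaryocyte), 1 to 4 (dendritic cell) and 1 to 3 (stroma and endothelium). The causes of these shifts were not tested. Called genes with both day 2 replicates singly numbered 5621 over genes tested in both fits, and 5566 to 5633 under other scalings and no filter.

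Replicate numbers did not pair the samples: deviations of same-numbered day 2 and day 6 samples correlated at −0.13, and other pairs of groups at −0.08 to 0.21. With the replicate block 7234 genes were called against day 2 and 7718 against untreated, and Adgrg1 (0.50) was called. Depth limits genes of a few counts, where ratios carry wide intervals.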

Other observations

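Chromosomes were described only over tested genes of at least 3 log2 CPM on average. Medians of the log2 fold change, day 6 against day 2, were computed for each of chromosomes 1 to 19 and X. They ran from −0.10 (chromosome 16, 308 such genes) to 0.12 (chromosome 1, 544 such genes). On chromosome 1, 41.4% of these genes rose and 27.2% fell, and on chromosome 16, 29.2% rose and 34.7% fell. These were the highest and lowest shares of rises among the chromosomes. Shares of falls ran from 24.4% (chromosome 12) to 34.9% (chromosome 18). The shares of 30.5% higher and 29.4% lower are over all tested genes, a different set. Against untreated, which shares the day 6 samples, the median was 0.14 on chromosome 1 and −0.05 on chromosome 16. No test was run on chromosomes.

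Lars2, a mitochondrial leucyl-tRNA synthetase gene, made up 1.48% of counts in day 2 replicate 1 and 0.214% in day 2 replicate 2. The mitochondrial ribosomal RNA genes mt-Rnr1 and mt-Rnr2 took 0.109% and 0.207% of the counts of that sample, against 0.0147 to 0.0321% and 0.0375 to 0.0621% in the other 7.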
